A study of Rattus norvegicus with 8 samples.

Results

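The cytosolic ribosome translates messenger RNA in every cell, and its proteins sit on the ribosomal RNAs of a large and a small subunit. Genes named Rpl or Rplp encode proteins of the large subunit, and genes named Rps, with Rpsa, those of the small subunit. Their messenger RNAs are abundant, are made in matched amounts, and start with a tract of pyrimidines (the 5′ terminal oligopyrimidine tract) through which their translation follows growth signals. Neurons depend on ribosomes in the cell body and in dendrites for the proteins of synapses.

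Members were chosen by gene name: probes whose name, without the endings for predicted or mapped genes, began with Rpl or Rps and a digit, or was Rplp1, Rplp2 or Rpsa, leaving out the S6 kinases (Rps6k). This gave 112 probes of 75 genes, among 23399 probes with a gene name for 18364 genes and 41012 probes in all. The large subunit was represented by 42 genes and the small by 31. The other 2 genes, Rpl10l and Rpl3l, encode proteins like those of the ribosome and were left out of subunit medians. No probe was named Rplp0, Rpl38, Rpl22l1, Rpl39l, Rps27l, Rpl7l1 or Rps4y2. Where a gene had several probes (25 genes, with at most 5 probes), it was read from the brightest over the 8 arrays, and 50 genes rested on 1 probe.

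RNA came from CA3 hippocampal neurons of Sprague-Dawley rats, collected by laser capture 24 hours after moderate fluid percussion injury of the brain, after sham injury, or without any treatment (naive). In injured rats, neurons stained by Fluoro-Jade, which marks degenerating neurons, were collected as dying and unstained neurons as surviving, about 600 neurons for each sample. Samples were pools from several rats, and each of the 4 groups was measured on 2 single-colour arrays. The labels do not tie pools to animals, so p-values measure the spread between these pools, and fewer cells of a type and less RNA per cell cannot be told apart. Arrays of injured rats lay on 1 slide and those of sham and naive rats on another, so injury and slide cannot be told apart. The labels name a pair of amplification kits without saying which pool had which.

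Values are log2 signals over the median of the array. Dying replicate 1 stood apart from the other arrays. Over probes above background everywhere, Pearson's r of log2 signals was 0.892 between the dying replicates. Between dying replicate 2 and each surviving array it was 0.934 and 0.941. Probes do not count as independent replicates. The median signal before scaling was 19.2 on dying replicate 1 and 52.6 on dying replicate 2, against 52.2 and 48.2 on the surviving arrays, 16.5 and 16.4 in sham and 27.2 and 22.7 in naive rats. Markers of pyramidal neurons (Slc17a7, Camk2a and Grik4, of which Camk2a gave the most signal) summed to 4.75 times the array median on dying replicate 1 and to 51.0 on dying replicate 2. The sum was 75.3 and 60.4 on the surviving arrays, 74.4 and 56.3 in sham and 31.4 and 71.2 in naive rats. Main results are also given without dying replicate 1.

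Most ribosomal protein messages were bright on every array. On the best probe of each gene, 68 of the 75 genes stood well above background in both replicates of every group. Another 6, Rpl24 and Rpl35a among them, had no value on 1 dying array because of a non-uniform spot. Rps26 did not reach that mark on 1 of the 2 dying arrays. All 75 genes could be tested in each comparison.

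The median over the 42 large subunit genes was 9.45 and 10.09 in naive and 10.24 and 9.89 in sham neurons. In surviving neurons it was 9.92 and 9.63, against 10.62 and 9.67 in dying neurons. Over the 31 small subunit genes it was 9.72 and 10.10 in naive and 10.24 and 10.21 in sham neurons. Surviving neurons gave 9.98 and 9.84, and dying neurons 10.20 and 9.64. On the injured arrays the subunits thus lay within the span of the naive and sham arrays, except for the large subunit on dying replicate 1 (10.62) and the small subunit on dying replicate 2 (9.64). The large subunit median less the small was -0.32 to -0.01 on the naive, sham and surviving arrays, and 0.41 and 0.03 on the dying arrays, where some genes had no value. Over the 67 genes with a value on all arrays it was 0.44 and -0.07 on the dying arrays. Each gene has its own probes, so these gaps do not show which subunit was more abundant.

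**Figure D1:**
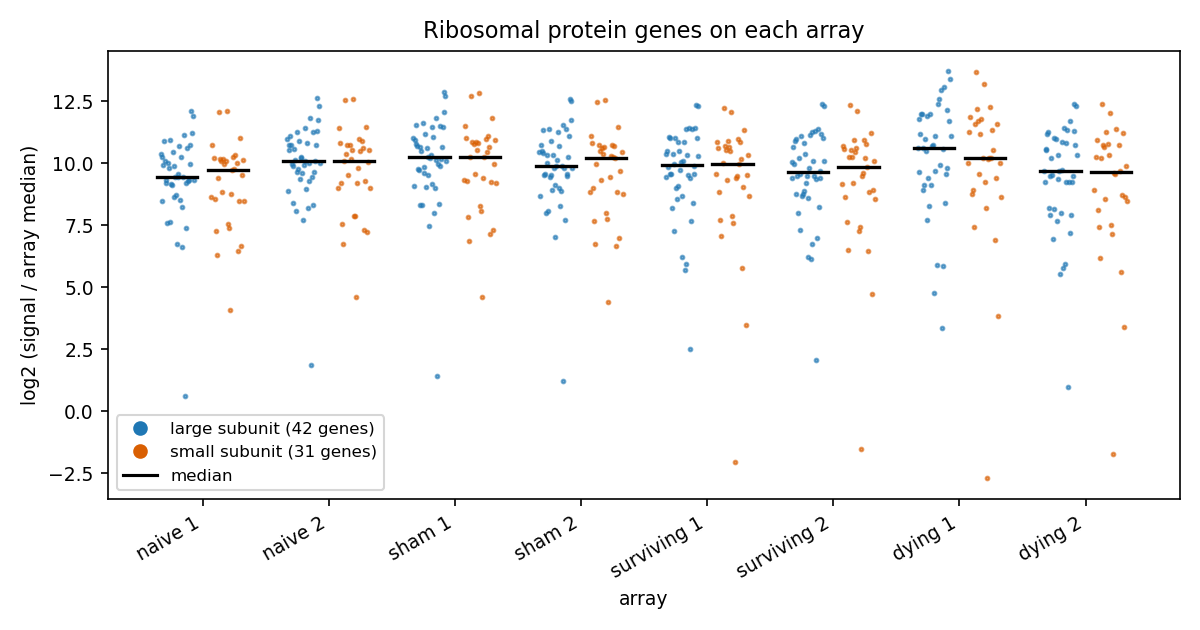
Log2 signal over the array median (vertical axis) for each ribosomal protein gene (points) on each of the 8 arrays (horizontal axis), with the median of each subunit as a black line. The median of the large subunit was 10.62 on dying replicate 1 and 9.67 on dying replicate 2, and the low small subunit point on the injured arrays is Rps26.

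Replicates differed more in dying neurons than in the other groups. Dying replicate 1 was higher than dying replicate 2 for 62 of 67 genes with a value on both, by a median of 0.96, and 82.1% of the genes differed by more than 1.5-fold. In surviving neurons the median difference was 0.10, with 8 of 73 genes over 1.5-fold, and in sham 0.27, with 1.37%. The naive replicates differed by -0.55, in the same direction for all 73 genes, with 46.6% over 1.5-fold. Among all named genes well above background on both arrays, 62.1% in dying, 31.6% in surviving, 22.3% in sham and 49.8% in naive neurons differed by more than 1.5-fold. The median difference of these named genes was 0.29 in dying, 0.12 in surviving, 0.26 in sham and -0.51 in naive neurons.

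The comparison of surviving with dying neurons asks which messages differ between injured neurons that took up the stain for degeneration and neighbours that did not. No ribosomal protein gene passed the threshold, an adjusted p of 0.05 in limma, and 0 had an unadjusted p under 0.05. Among 13121 named genes tested, 0.0% passed the threshold and 16.1% had an unadjusted p under 0.05. The median difference, surviving minus dying, was -0.22 over the 73 genes (-0.27 for the large and -0.13 for the small subunit), within the 0.40 by which this median varied between replicates (pooled SD). It was 0.13 without dying replicate 1 and -0.71 without dying replicate 2. Over all named genes tested the median was 0.32. The ribosomal protein median thus lay 0.54 below that of all genes, but 0.15 below it without dying replicate 1 and 0.92 below it without dying replicate 2. With the normexp background correction it lay 0.51 above.

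Arrays of surviving and dying neurons did not overlap for 21 of the 69 genes with a value on all 4 arrays, 3 higher in surviving (4.35%) and 18 in dying neurons (26.1%). Among all named genes the shares without overlap were 35.8% toward surviving and 12.6% toward dying neurons. No member passed the rule of over 2-fold with replicates within 1.5-fold in both groups, which 4.53% of named genes well above background on all 4 arrays passed. Replicates were within 1.5-fold in both groups for 11 of 75 members (14.7%) and for 28.9% of those named genes. With 1 dying array left out, that filter applied to surviving neurons alone. Without dying replicate 2, 26 of 75 members (26.0% of named genes) were over 2-fold and 63 of 71 (87.1%) did not overlap. With dying replicate 1 left out these were 2 of 75 (12.1%) and 60 of 73 (77.3%). Of the genes without overlap, 41 were then higher and 19 lower in surviving neurons, against 7 and 56 without dying replicate 2. Those over 2-fold were 2 higher and 0 lower, against 1 and 25 without dying replicate 2.

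Among genes without overlap, the differences toward surviving neurons were led by Rpl3, which helps form the peptidyl transferase centre. Surviving neurons had levels of 6.23 and 6.23, against 4.77 and 5.52 in dying neurons. The difference was 1.09 (standard error 0.52) and did not pass the threshold. Rps9 and Rps21 followed, with differences of 0.28 and 0.27, smaller than their standard errors of 0.44 and 0.42. Toward dying neurons the differences were led by Rpl36 (-1.51, standard error 0.66), which had the smallest adjusted p of the members in limma, 0.233. Rpl41, the smallest protein of the ribosome, differed by -0.99 (standard error 0.56) and Rpl13 by -0.95 (standard error 0.47). When dying replicate 1 was left out, the differences were 0.71 for Rpl3, -0.63 for Rpl36, -0.30 for Rpl41 and -0.62 for Rpl13. Under the normexp correction Rpl36, Rpl41 and Rpl13 turned to 0.08, 0.59 and 0.67. Without dying replicate 2, 2 of 75 members passed the threshold as lower in surviving neurons, Rpl36 among them, against 4.28% of named genes. The remaining dying array was then assumed to vary like the other groups, as wherever 1 array of a group was left out.

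**Figure D2:**
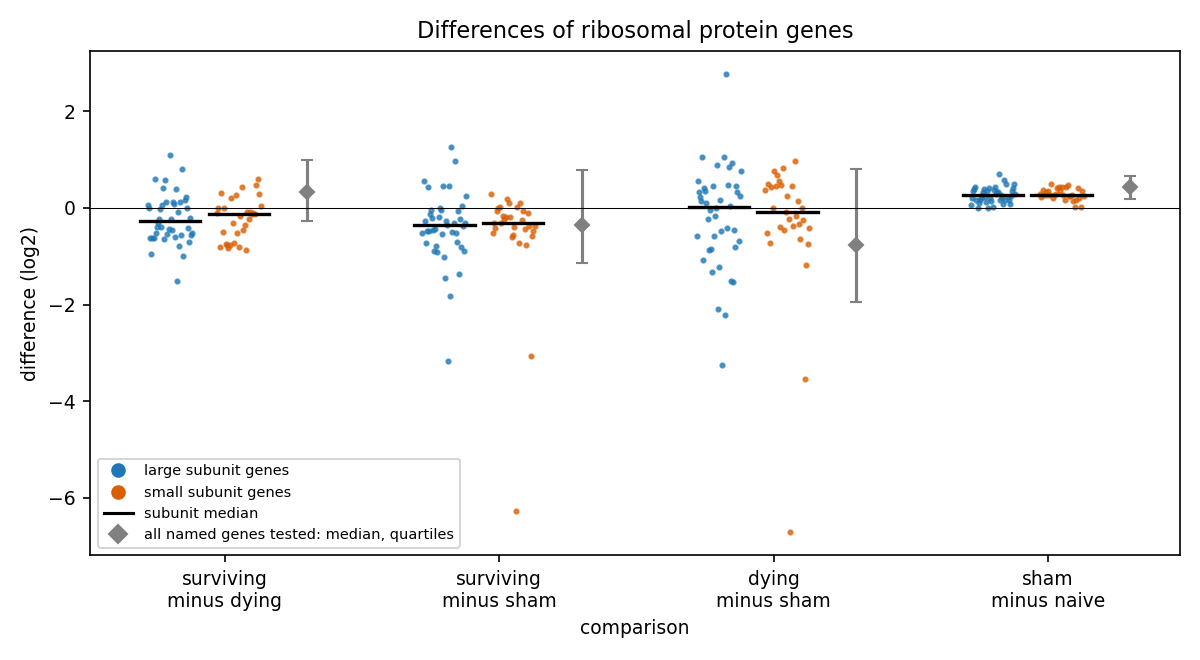
Difference in log2 signal (vertical axis) of each large and small subunit gene (points) in the 4 comparisons (horizontal axis), with subunit medians as black lines; grey diamonds and bars are the median and quartiles of all named genes tested. Most genes lie within 1 of 0, while Rps26, Rps7 and Rpl34 lie far below 0 in both comparisons with sham.

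Against sham, 3 genes fell in surviving neurons: Rps26, Rps7 and Rpl34. In dying neurons the same 3 genes fell, with Rpl3 and Rpl5, and Rpl36 rose. These are 3 and 6 of 75 members. Among the named genes tested, 7.47% were higher and 9.61% lower in surviving neurons, and 13.4% were higher and 31.3% lower in dying neurons. The members called were thus fewer than the background share in each direction. Both comparisons use the same sham arrays.

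Rps26, a protein of the small subunit near the exit of the messenger RNA channel, had levels of 4.08 and 4.62 in naive and 4.60 and 4.42 in sham neurons. In surviving neurons they were -2.04 and -1.51, and in dying neurons -2.69 and -1.72. All 4 injured arrays lay below the array median and below all 4 uninjured arrays. The gene fell by 6.28 (standard error 0.51, adjusted p = 0.00107 in limma), or 77.7-fold, in surviving neurons, and fell by 6.71 (standard error 0.51, adjusted p = 0.00042 in limma) in dying neurons. Under the normexp correction the differences were -2.90 in surviving and -2.61 in dying neurons, and neither passed. The gene rests on 1 probe, which on 1 dying array did not stand well above background, and the 2 injured groups overlapped. Rps26 entered the test in dying neurons because both sham arrays measured it well above background. With the filter of all 4 arrays above background it was not tested there, so the size of that fall is uncertain.

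Rps7, another small subunit protein, had levels of 6.68 and 7.23 in naive and 7.33 and 7.0 in sham neurons. In surviving neurons they were 3.49 and 4.72, and in dying neurons 3.86 and 3.39. It fell by 3.06 (standard error 0.54, adjusted p = 0.0131 in limma), or 8.35-fold, in surviving neurons, and fell by 3.54 (standard error 0.54, adjusted p = 0.00306 in limma) in dying neurons. Rpl34, of the large subunit, had levels of 8.52 and 8.97 in naive and 9.18 and 9.0 in sham neurons. In surviving neurons they were 5.69 and 6.16, and in dying neurons 5.90 and 5.78. It fell by 3.16 (standard error 0.44, adjusted p = 0.00592 in limma), or 8.96-fold, in surviving neurons, and fell by 3.24 (standard error 0.44, adjusted p = 0.00218 in limma) in dying neurons. For both genes every injured array lay below every uninjured array, and each rests on 1 probe.

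Rpl3 had levels of 7.47 and 7.01 in sham neurons and fell by 2.10 (standard error 0.52, adjusted p = 0.0147 in limma), or 4.28-fold, in dying neurons. In surviving neurons the difference from sham was -1.01 and did not pass. Between dying and sham neurons it did not pass under quantile normalization (-0.91), with scaling to the median of probes above background on all arrays (-1.09) or under normexp (-2.57). Rpl5, which with Rpl11 and the 5S ribosomal RNA can bind Mdm2 and so stabilise p53, had levels of 9.88 and 9.49 in sham neurons. They were 8.41 and 8.23 in surviving neurons, against 8.40 and 7.91 in dying neurons. It fell by 1.53 (standard error 0.44, adjusted p = 0.0259 in limma) in dying neurons, and the difference in surviving neurons was -1.36 (adjusted p = 0.0664 in limma). The call in dying neurons was lost with scaling to the 75th percentile (-0.80), to the median of RefSeq probes (-1.15) or to that of probes above background on all arrays (-0.52). It was also lost under quantile normalization (-0.51) and normexp (-2.26), and in the fit of the 4 arrays alone. The other probes of Rpl5 differed by -2.00 and -1.83 in dying neurons. Rpl11, its partner, differed by 0.34 in dying neurons, with levels of 10.95 and 10.74 in sham and 11.78 and 10.59 in dying neurons, which overlapped; the difference was -0.25 without dying replicate 1.

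Rpl36, of the large subunit, was the only member to rise. Its levels were 8.25 and 9.27 in naive and 9.0 and 8.87 in sham neurons. Surviving neurons had 10.32 and 10.08, and dying neurons 12.59 and 10.83. It rose by 2.78 (standard error 0.65, adjusted p = 0.012 in limma), or 6.86-fold, in dying neurons, and differed by 1.27 in surviving neurons, without passing. Every injured array lay above every uninjured array, on 1 probe. It was called with either dying array left out (1.90 without dying replicate 1), but not without sham replicate 1 or 2, with adjusted p = 0.0718 and 0.0657 in limma and a range of 0.00317 to 0.519 over the alternatives. Under normexp the difference was 2.36 and did not pass.

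**Figure D3:**
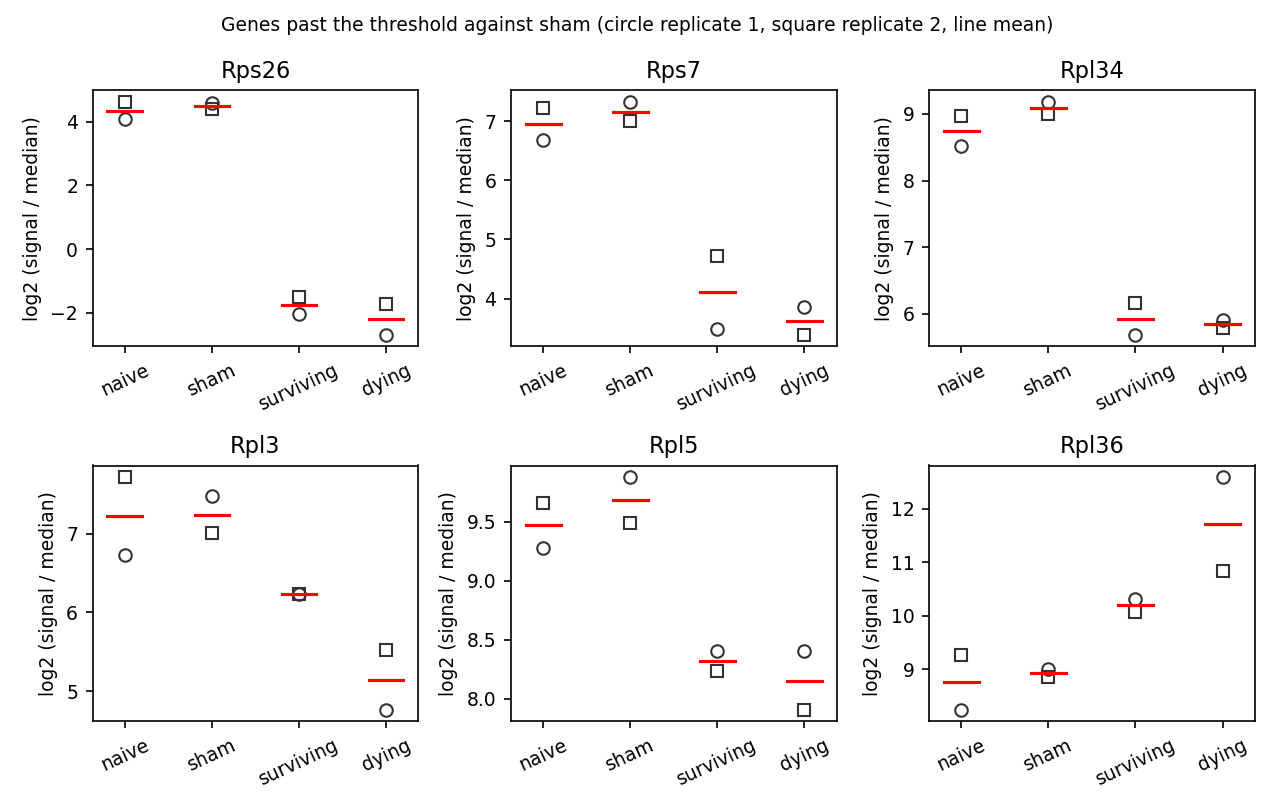
Log2 signal over the array median (vertical axes) in the 4 groups (horizontal axes) for the 6 genes past the threshold against sham; circles and squares are replicates 1 and 2, and red lines are means. Rps26, Rps7 and Rpl34 lie lower on all 4 injured arrays than on the 4 uninjured arrays, and Rpl36 lies higher; each panel has its own scale.

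Arrays of surviving and sham neurons did not overlap for 8 of 75 members higher and 47 lower in surviving neurons, against 28.4% and 47.1% of named genes. For dying and sham neurons these were 12 and 18 of 69 members, against 25.7% and 51.1%. Of those that did not pass, the lowest in surviving neurons were Rpl35a (-1.81), Rpl30 (-1.44) and Rpl5 (-1.36), and the highest Rpl36, Rpl37a (0.98) and Rpl10l (0.84). Rpl37a and Rpl10l each rest on 1 faint probe. Rpl37a had levels of 2.52 and 2.08 in surviving and 1.43 and 1.22 in sham neurons. Rpl10l had 3.96 and 3.51 against 3.37 and 2.41. In dying neurons the lowest were Rpl4 (-1.51), Rpl30 (-1.22) and Rpl15 (-1.07), and the highest Rpl10l (1.17) and Rpl14 (1.05). These became -0.85, -2.07, -1.44, 0.74 and 0.68 without dying replicate 1, and Rpl30 passed. Rpl35a, with a value on 1 dying array, differed by -2.21 there and did not pass. With the deposited signal of the series table or with non-uniform spots kept, Rpl35a and Rpl24 passed as lower in dying neurons. Rpl35a also passed with a replicate block or without a naive array.

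Calls against sham depended on which arrays entered. Without 1 of the sham or surviving arrays, Rps26 was the 1 member that passed in surviving neurons, and 0.599% to 1.25% of named genes did. Without 1 of the dying arrays 5 members passed there, Rpl30 and Rpl5 with the 3 above, and 29.1% of named genes. In dying neurons, Rps26, Rps7 and Rpl34 passed whichever of the 8 arrays was left out. Rpl3 was lost without either sham array or without dying replicate 1 (-1.72), and Rpl5 without either sham or surviving array or without dying replicate 2 (-1.28). With dying replicate 2 left out, 8 genes were higher, among them Rpl36, Rpl14 and Rpl41, and 5 lower, against 16.7% and 32.9% of named genes. Leaving out dying replicate 1 gave 1 higher and 5 lower, against 7.40% and 20.5%.

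Over all 73 genes, the called ones included, the median difference from sham was -0.32 in surviving neurons (-0.36 large, -0.30 small) and -0.0032 in dying neurons (0.02 large, -0.08 small). Over all named genes tested it was -0.36 in surviving and -0.76 in dying neurons. The ribosomal protein median was thus 0.04 above that of all genes in surviving and 0.75 above it in dying neurons, the latter 0.05 without dying replicate 1 and 1.04 without dying replicate 2. Over the alternatives the distance in surviving neurons ranged from -0.11 to 0.59. The median in dying neurons itself was -0.48 without dying replicate 1 and 0.49 without dying replicate 2. The median change of the large subunit less that of the small was -0.06 in surviving and 0.10 in dying neurons, the latter -0.02 without dying replicate 1. The same gap between replicates had a pooled SD of 0.03. Taken from the array medians, the gap moved by 0.03 in surviving and 0.38 in dying neurons (0.19 without dying replicate 1), with a pooled SD of 0.21 between replicates. Over the 67 genes with a value on all arrays the latter was 0.35 (0.09 without dying replicate 1).

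The scale set the direction for the group. Dividing by the 75th percentile instead of the median gave medians of 0.46 in surviving and 0.72 in dying neurons, with 18 genes higher and 4 lower in dying neurons, against 22.6% and 19.1% of named genes. Quantile normalization gave 24 higher and 3 lower (18.8% and 15.1%), and scaling to the median of probes above background on all arrays 32 higher and 3 lower (27.1% and 14.9%). Under the normexp correction no member passed, nor did any named gene, with differences in dying neurons of -3.77 for Rps7 and -3.65 for Rpl34. Rps26, Rps7 and Rpl34 were called lower in dying neurons under every scaling except normexp. The distance of the ribosomal protein median from that of all genes was 0.75 or 0.71 under these scalings of the processed signal, and 0.20 under normexp.

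**Figure D4:**
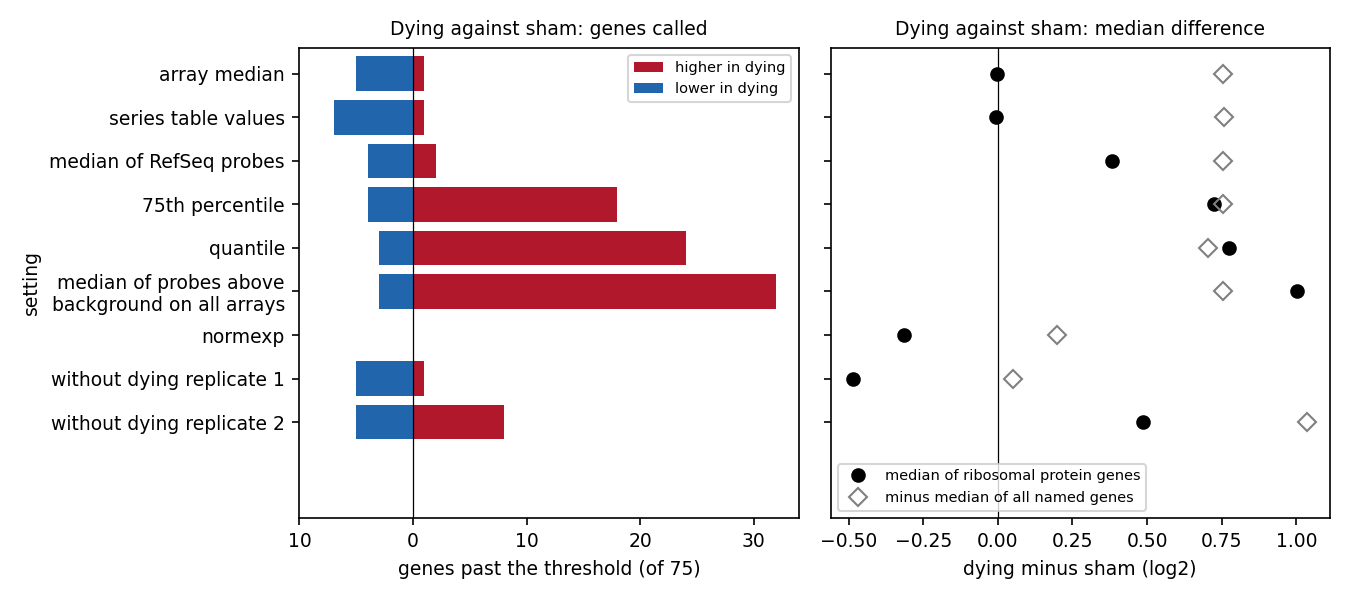
Dying against sham under 9 settings (vertical axis): the number of genes past the threshold, higher to the right and lower to the left, and the median difference in log2 signal of ribosomal protein genes (circles) and its distance from the median of all named genes tested (diamonds). Genes called higher range from 0 to 32, and the distance falls to 0.05 without dying replicate 1.

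Set against the ribosomal protein median of the same array, 60 of 73 genes stayed within 1 of it between sham and dying neurons and 65 between sham and surviving neurons. This centring was chosen after the data were seen. Between sham and dying neurons, Rps26 (-6.70), Rps7 (-3.53), Rpl34 (-3.23), Rpl3 (-2.09) and Rpl5 (-1.52) lay below, with Rpl35a, Rpl24, Rpl4, Rpl30 and Rpl15. Rpl36 (2.79), Rpl14 and Rpl35 lay above. With dying replicate 1 left out, 60 of 71 genes stayed within 1 between sham and dying neurons, Rpl4 and Rpl15 among them. With dying replicate 2 left out, 53 of 69 genes did. Rpl29, Rps15a, Rpl41 and Rpl37a then also lay above, and Rps9 and Rpl7 also below. Between sham and naive neurons all 73 genes stayed within 1.

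No member passed the threshold between sham and naive neurons. The median difference was 0.27 for each subunit, against 0.42 over all named genes tested, and 71 of 73 genes were higher in sham. The median was -0.16 under quantile normalization, -0.15 with scaling to the median of probes above background on all arrays, -0.02 with the 75th percentile and 1.27 under normexp. It was -0.00297 without naive replicate 1, 0.56 without naive replicate 2, 0.13 without sham replicate 1 and 0.43 without sham replicate 2. Arrays did not overlap for 19 of 75 members higher and 0 lower in sham, against 42.5% and 3.14% of named genes. Among these, Rpl3l (1.03), Rpl39 (0.57) and Rpl41 (0.50) had the largest differences. In limma 0 members had an unadjusted p under 0.05. Of 10104 named genes tested, 0.0% passed the threshold and 4.15% had an unadjusted p under 0.05.

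Genes with known roles outside the set of calls were read between surviving and dying neurons. Of the stalk proteins, which recruit elongation factors, Rplp1 differed by -0.57 and Rplp2 by -0.51. Rps6, the target of the S6 kinases, differed by -0.13, with levels of 11.33 and 11.22 against 11.59 and 11.21, which overlapped. Rps3 (-0.22), Rpsa (0.05), Rps19 (0.20), Rps14 (-0.50) and Rps20 (-0.73) of the small subunit lay on both sides of 0. Of the large subunit, Rpl4 differed by 0.81, Rpl10 by 0.07, Rpl13a by -0.61, Rpl26 by -0.64 and Rpl24, measured on 1 dying array, by 0.41. Rps27a, made as a fusion with ubiquitin, differed by -0.34. Of genes with a paralog, Rpl22 differed by -0.03, Rpl39 by -0.55, Rps27 by -0.45, Rpl7 by -0.01, Rps4x by -0.12 and Rpl3l by 0.13. None passed the threshold. Without dying replicate 1, Rplp1 differed by -0.02, Rplp2 by -0.11, Rps14 by 0.26, Rps19 by 0.70, Rps20 by -0.22, Rpl4 by 0.15, Rpl10 by 0.54, Rpl13a by -0.20, Rpl26 by -0.14 and Rpl39 by 0.11. Likewise Rps6 differed by 0.06, Rps3 by 0.08, Rpsa by 0.12, Rps27a by -0.02, Rpl22 by 0.35, Rps27 by -0.18, Rpl7 by 0.15, Rps4x by 0.51 and Rpl3l by -0.44. Without dying replicate 2, Rpl4 differed by 1.47, Rpl3l by 0.71, Rps14 by -1.25, Rps20 by -1.23, Rpl39 by -1.22 and Rpl26 by -1.14. Rplp1 then differed by -1.11, Rpl13a by -1.03, Rplp2 by -0.90, Rps4x by -0.75 and Rps27 by -0.72. Rps27a differed by -0.67, Rps3 by -0.53, Rps6 by -0.31, Rpl22 by -0.41 and Rpl7 by -0.17. Rpl10 (-0.41), Rps19 (-0.30) and Rpsa (-0.02) turned below 0 in that setting.

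Probes of 1 gene did not always move together. Of the 25 genes with several probes, 15 had all probes on the same side of 0 between dying and sham neurons, and the median range over the probes of a gene was 0.64. Of the 112 probes, 98 stood well above background throughout. The RefSeq gene table held the accessions of 92 of them, and there 3 probes of Rpl36a and Rpl37 carry the symbols Rpl36al1 and Rpl37l1. Many ribosomal protein genes have near-identical processed copies, which such probes may not separate.

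The start of each gene was read for the tract that marks these messages. The RefSeq promoter table (GRCr8) held 59 of the 73 genes. A run of at least 8 bases that are each C or T, on the strand of the gene and within 5 bases of the start, was found in 62.7% of them and in 9.06% of all 33469 promoters. The share was 62.9% for the large and 62.5% for the small subunit. A run of A and G was found in 1.69% of the 59 genes and in 10.7% of all promoters. Each of the 59 genes was read from its first listed promoter, while shares over all promoters counted every promoter listed. Of 8 short motifs searched from 10 bases before to 15 after the start, CTTTCC was found in 22.0% of these genes and 0.938% of all promoters, and TCTTTC in 20.3% and 0.783%. The others, which overlap them, were CTTCC (30.5% and 4.74%), CCTTTC (16.9% and 0.81%), CTTTTC (10.2% and 0.744%), TCTTTCC (10.2% and 0.278%), CTTTTCC (10.2% and 0.236%) and CTCTTTCC (6.78% and 0.102%). On the opposite strand, 2 genes held CTTCC, 1 held CTTTCC and 0 held any of the rest. The motifs were chosen with the values known. The starts of the 6 genes called against sham are shown to compare their tracts, from 20 bases before the start in the table to 10 bases from it, 5′ to 3′ on the strand of the gene, with the longest run of C and T near the start in capitals.
Rps26, chr7:1643395-1643424, minus strand: gtcgggagagccgccgggTCCTCTTTCgag
Rps7, chr6:50999436-50999465, minus strand: tgttctcgcgagagctgtgTCTCTTTCTaa
Rpl34, chr2:221962274-221962303, minus strand: gcccgCCCCTTCCTTTTCCTCTTCCgggga
Rpl5, chr14:1995216-1995245, minus strand: cagccaCTCTCTTTCCCacgtcgcttgcgt
Rpl3, chr7:113507981-113508010, minus strand: ctgcaccagcgcctgctcgaTCTCTatcgg
Rpl36, chr9:1533760-1533789, plus strand: tcttcctgtccggccgCCatcggaaagctg
Rps26, Rps7, Rpl34 and Rpl5 carried runs of 9, 9, 20 and 11, and Rpl3 and Rpl36 runs of 5 and 2. The starts used for Rpl3 and Rpl36 lay 125 and 4663 bases inside the annotated gene, so their windows may not show the start in use in these neurons. Between dying and sham neurons the median difference was 0.14 for the 37 genes with a run and -0.10 for the 22 without. Without dying replicate 1 these were -0.35 and, for 21 genes, -0.43. Without dying replicate 2 they were 0.63, for 35 genes, and 0.35, so the sign of both medians depended on the dying array kept. Rpl3 and Rpl36 counted among the genes without a run.

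Other lists of genes gave context, beside the 31.3% of named genes lower and 13.4% higher in dying neurons, or 20.5% and 7.40% without dying replicate 1. Of ribosomal proteins under other symbols, 4 had a probe and none passed in any comparison, but 2 were higher in dying neurons without dying replicate 2. Arbp, the older symbol of Rplp0, differed by -0.61 between dying and sham neurons. For surviving against sham neurons, 9.61% of named genes were lower and 7.47% higher. The 60 mitochondrial ribosomal proteins tested had a median of -1.29 between dying and sham neurons, with 25 lower and 0 higher (-1.43, with 18 lower, without dying replicate 1), and of -0.72 in surviving neurons, with 2 lower. In ribosome biogenesis, 6 of 17 genes tested fell in dying neurons (Npm1, Nol5a, Wdr12, Sbds, Bxdc2 and Ebna1bp2) and 0 of 19 passed in surviving neurons. Sbds had levels of -1.88 and 2.04 on the dying arrays. With dying replicate 1 left out, Npm1 (-1.63), Nol5a (-1.37), Wdr12 (-1.79) and Sbds (-1.35) did not pass, while Bxdc2 (-2.08) did. Ebna1bp2 had no value there. Nip7 and Gnl3, not called with all arrays, differed by -2.23 and -2.11 in that setting, and Dkc1 and Rrs1 by 1.97 and 1.64. Of other messages with a pyrimidine tract, Naca (-1.96) and Btf3 (-2.04) fell in dying neurons, 2 of 12 tested, and also without dying replicate 1 (-2.12 and -2.35). Among the S6 kinases, Rps6ka1 rose by 1.69 and Rps6kb1 fell by 1.54 in dying neurons, of 5 tested; without dying replicate 1, Rps6ka1 differed by 1.15 and did not pass. Neuronal control genes fell in 4 of 9 in dying and 1 of 8 in surviving neurons, and housekeeping genes in 4 of 8 and 0 of 8. In dying neurons 3 of 8 and 2 of 8 fell without dying replicate 1.

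Markers of other cells also moved with the groups. Among the named genes tested, 13.4% were higher and 31.3% lower in dying than in sham neurons. In surviving neurons these shares were 7.47% and 9.61%, and several counts below lie near such shares. In dying against sham neurons, 4 of 7 microglial genes tested rose (Cd68, C1qa, C1qb and Tyrobp), with 0 of 8 in surviving neurons. The summed signal of the microglial genes, to which C1qa gave the most, was 1954 and 1065 times the array median in dying neurons. It was 307.0 and 339 in surviving, 264 and 242 in sham and 127 and 253 in naive neurons. Of neutrophil and leukocyte genes 3 of 3 rose in dying and 1 of 4 in surviving neurons. Of the 6 on the array, only 1 could be tested between sham and naive neurons. Most of those counted thus entered the test only through injured arrays well above background, which favours a rise. Of endothelial and pericyte genes 2 of 5 rose in dying and 1 of 5 in surviving neurons. Oligodendrocyte genes fell in 3 of 7 in dying and 2 of 7 in surviving neurons, summing to 1859 and 1764 in sham and to 238 and 187 in dying neurons. Astrocyte genes fell in 2 of 6 and 1 of 6, interneuron genes in 2 of 6 and 1 of 6, and precursors of oligodendrocytes in 0 of 3 and 1 of 4. On dying replicates 1 and 2 astrocyte genes summed to 1220 and 541, interneuron genes to 676 and 159 and precursor genes to 1012 and 548. In sham these sums were 1472 and 926, 416 and 394, and 578 and 432. Of the 3 pyramidal markers none passed, with a median of -2.16 in dying neurons, or -0.84, again with none called, without dying replicate 1. Without dying replicate 2 the median of the pyramidal markers was -3.40 (Slc17a7 -3.40, Camk2a -2.95 and Grik4 -5.87). The median was then -3.40 for neuronal control genes and 2.16 for endothelial and pericyte genes. Without dying replicate 1, 4 of 8 microglial genes, 2 of 4 of neutrophils and leukocytes and 1 of 5 of endothelium and pericytes rose. Then 2 of 7 oligodendrocyte, 2 of 6 astrocyte and 1 of 6 interneuron genes fell, and the astrocyte gene Gfap rose by 1.96. The part of these cells in the differences of the ribosomal protein genes was not tested.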

How the data were processed

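RNA of 8 pools of laser-captured CA3 neurons was measured on single-colour Agilent rat arrays. Per the file headers, the authors' software, Agilent Feature Extraction 9.1.3.1, turned each spot into a processed intensity, free of background and of spatial trends and not scaled between arrays. The authors also deposited mean and local background intensities and other values, which mark by 0 or 1 whether a spot was above background, saturated or non-uniform. The deposited signal of the series table lay within 1% of the processed signal divided by 1 constant per array for 99.8% to 99.9% of the probes with a signal over 10. Over all probes this held for 63.3% to 79.4%, and the deposited signal was used as an alternative.

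Without non-uniform spots, the mean signal per probe was divided by the median over all probes of the array, raised to 0.01 where lower, and put on a log2 scale. The 4 groups were fitted on all 8 arrays with limma 3.58.1 in R 4.3.3, leaving 4 residual degrees of freedom. Two-sided p-values were corrected after Benjamini and Hochberg over all probes that both arrays of 1 or both compared groups measured well above background (at least 50% of a probe's spots). Code was tested on simulated data. The number of arrays limits the precision.

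Genes named are those past the threshold, a list of genes by known role, and, per comparison, the 3 members of largest change in each direction among those well above background on all 4 arrays and without overlap. Members and lists were chosen with earlier results of these data known. Alternatives were other scalings, normexp with an offset of 50, the filter, the floor of 0.1, non-uniform spots kept, other summaries over probes, RefSeq probes alone, fits of 4 arrays, a replicate block and leaving out each array. Values of some single genes are not reported here.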

Additional observations from a re-analysis of the deposited data

Results flagged for a closer look

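Rpl41 differed by -0.99 between surviving and dying neurons, or -0.30 without dying replicate 1. Both surviving arrays (11.39 and 11.385) lay below both sham arrays (11.495 and 11.392), and both dying arrays (13.07 and 11.69) lay above them, which called for a closer look. The surviving arrays all but tied with the lower sham array. The difference did not pass the threshold in limma (adjusted p = 0.344), and the difference between surviving and sham neurons was -0.06.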

How the results depend on the processing

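Counts and medians moved with the scale. With the 75th percentile, 6 genes passed between surviving and sham neurons (median 0.46) and 22 between dying and sham (0.72). Quantile normalization gave 5 (0.35) and 27 (0.78), a sham minus naive median of -0.16, 42 genes without overlap between surviving and dying neurons and 1 over 2-fold. The median of probes above background on all arrays gave 10 (0.65), 35 (1.003) and -0.15, and that of RefSeq probes 33 genes without overlap. Normexp gave 0 and 0 calls, medians of 1.18 (surviving minus dying), 0.79 (surviving minus sham) and 1.27 (sham minus naive), and 1 gene over 2-fold. The mean over probes gave 1 gene over 2-fold, as did a looser filter on replicates, the smaller being 50% of the larger or more. Fitting the 4 arrays alone gave 7 calls between surviving and sham neurons. The cause was not tested.

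Leaving out 1 array gave 0 to 2 calls between surviving and dying neurons, 1 to 5 between surviving and sham and 3 to 13 between dying and sham. Medians ranged from -0.71 to 0.13, -0.45 to -0.20, -0.48 to 0.49 and, for sham minus naive, -0.00297 to 0.56. The subunit gap ranged from -0.275 to 0.0312, -0.096 to -0.0346, -0.0216 to 0.168 and -0.0386 to 0.0209. Still with 1 array left out, genes without overlap ranged from 21 to 63 and those over 2-fold from 0 to 26; RefSeq probes alone gave 18 without overlap. For surviving against dying, surviving against sham and dying against sham it was -0.00186, -0.111 and -0.0752 under quantile normalization, -0.207, -0.0161 and 0.211 under normexp and -0.273, -0.0248 and 0.23 with RefSeq probes alone. For the first and last of these it was -0.103 and 0.0618 with the RefSeq median, -0.223 and 0.146 both with the series table and with non-uniform spots kept, 0.010 and 0.0516 with the mean over probes, and -0.103 and 0.0463 with the replicate block. No called gene changed sign. Of the genes named between surviving and dying neurons, none of them called, 18 of 28 changed sign under normexp, 8 of 27 without dying replicate 1, 8 of 28 with the RefSeq median and 0 to 4 under the other alternatives.

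With the replicate block, 0, 3, 7 and 0 genes passed in the 4 comparisons. Deviations of same-numbered surviving and dying arrays correlated at r = -0.195, so the numbers were also crossed, chosen after the data were seen, with 0 calls between these groups. Signal over background limits Rps26, which was not well above it on 1 dying array.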

Other observations

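Ribosomal proteins were numbered roughly by decreasing size, and the difference between dying replicates 1 and 2 was set against that number, an idea that came after the values were seen. Across the 36 large subunit genes with a value on both arrays, Spearman's rho was 0.65 (Pearson's r = 0.60). The difference had a median of 0.42 for the 8 genes numbered up to 9 and 1.38 for the 10 numbered from 30. For 28 small subunit genes rho was 0.15. The other replicate pairs gave, for the large and the small subunit, -0.05 and 0.21 in naive, -0.54 and -0.63 in sham and -0.08 and -0.20 in surviving neurons. The sham pair thus gave a relation of the opposite sign in both subunits. These are correlations across genes, which are not independent replicates, and 36 such relations were computed. Transcript and probe lengths were not used here.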
